A study of Mus musculus with 4 samples.

Results

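Among the regions tiled on the arrays of mouse forelimb buds, 1037 carried a high H3K27me3 signal together with an intermediate RING1B signal. They were 1037 of 19196 autosomal regions that could be scored for both antibodies, or 5.40%. Another 4882 of the 24078 tiled autosomal regions had fewer than 3 neighbouring usable probes for at least 1 antibody and were not scored. The members were chosen from the measured values themselves. Each region was scored by its top window, the highest mean of 3 neighbouring probes. A member had an H3K27me3 top window of at least 2.85 and a RING1B top window of at least 1.5 but under 2.7, on the log2 scale of Cy5 over Cy3 with each array centred on its median. On a linear scale these bounds are 7.21-fold for H3K27me3 and 2.83-fold to 6.50-fold for RING1B. Because both antibodies entered the rule, the values of both are descriptions, and no test was made on them.

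The study addressed how RING1 proteins act in the early proximal-distal patterning of the forelimb. Chromatin came from pools of whole forelimb buds of wild-type E10.5 embryos of the strain BDF1, so all cell types of the bud were mixed. An intermediate signal on fewer cells and a lower signal on all cells therefore cannot be told apart, and the labelled tissue was not checked against marker genes because regions were not named. It was precipitated with an antibody against RING1B (clone #3) or against H3K27me3 (Millipore). Before hybridisation to 2-colour arrays, 2 rounds of T7-based amplification were applied to the precipitate and to the input. The 4 arrays were 2 array designs, numbered 1 and 2, with 1 array per antibody for each, and the designs share no probes. Each region was therefore measured on 1 array per antibody. Errors given here are standard deviations over the 3 probes of a window, and they do not cover differences between embryos, pools or precipitations.

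RING1B is the E3 ligase of Polycomb repressive complex 1 and places ubiquitin on histone H2A. H3K27me3 is set by Polycomb repressive complex 2 and is read by the CBX subunits of canonical complex 1, so the mark and the ligase often occupy the same silent promoters of developmental genes. Variant forms of complex 1 reach chromatin without the mark, and the amount of RING1B on a marked promoter can differ between loci. In the limb bud, Polycomb proteins are known for holding patterning genes silent outside the part of the bud in which they act.

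The dyes have to be read with care before any signed value. The labels put the precipitated DNA in Cy3 and the input in Cy5 on all arrays, whereas the values here are Cy5 over Cy3 and thus run against the labels. Across probes, the Cy3 signals of the H3K27me3 and RING1B arrays correlated at r = 0.952 on design 1 and 0.837 on design 2. The Cy5 signals correlated at 0.709 and 0.722. In the probes of the members, the median log2 Cy3 signal was 10.18 on the H3K27me3 arrays and 9.72 on the RING1B arrays, against 10.25 and 9.81 in all regions. The median log2 Cy5 signal of the members was 12.67 and 10.38, against 9.87 and 9.61. The rule chose members for high Cy5 over Cy3, so these levels do not bear on which dye held the precipitate. The direction is not settled. With every sign turned, 97 regions met the rule, and 0 of them were among the 1037.

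Over the members, the H3K27me3 top window ranged from 2.85 to 6.10 with a median of 4.17 (SD 0.71, n = 1037 regions), which is 18.0-fold. The RING1B top window had a median of 2.05 (SD 0.34), which is 4.14-fold, between bounds that the rule fixed. The spread over the 3 probes of a top window had a median of 0.40 for H3K27me3 and 0.54 for RING1B. The RING1B spread is large beside the width of the intermediate band, so single regions near a bound cannot be placed firmly on either side of it. The 3 regions just inside the lower RING1B bound and the 3 just outside it had top windows that all round to 1.50. At the upper bound the nearest values were 2.69 to 2.70 inside and 2.70 to 2.71 outside. At the H3K27me3 threshold they were 2.85 to 2.86 inside and 2.85 outside.

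**Figure D1:**
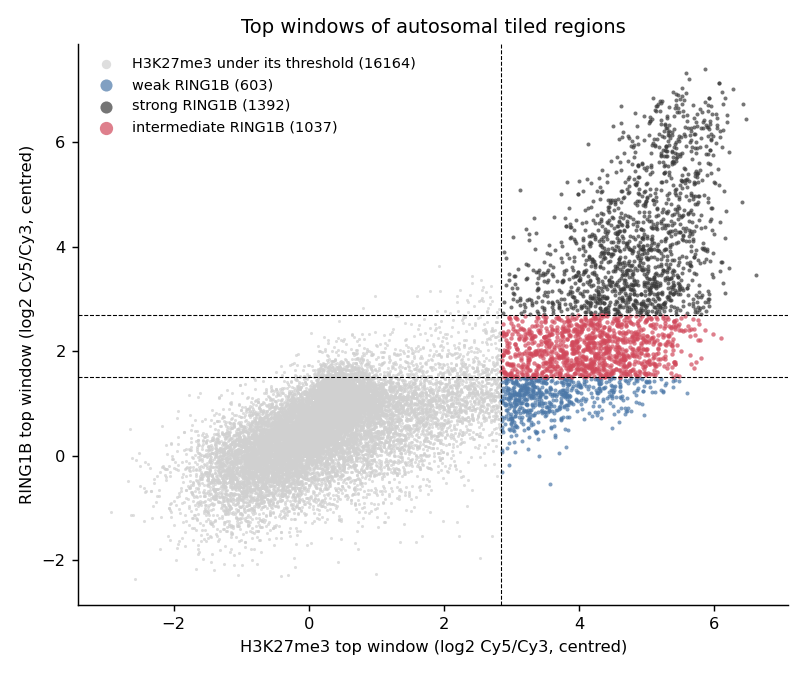
Top windows of the 19196 scored autosomal regions, with H3K27me3 on the x axis and RING1B on the y axis, both as centred log2 Cy5 over Cy3. Each point is a region, the dashed lines are the 3 bounds, and the 1037 intermediate regions fill a band between the 603 weak and the 1392 strong ones with no gap at either bound.

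The H3K27me3 threshold was passed by 3032 regions, 15.8% of those scored, and the members made up 34.2% of them. The rest divided into 603 regions with a RING1B top window under 1.5, termed weak here, and 1392 regions at or over 2.7, termed strong. Over all scored regions, 17.5% had a RING1B top window of at least 1.5 and 7.44% one of at least 2.7, and 1924 of 19196 lay between these bounds. Members were 53.9% of the 1924, and the other 887 lay under the H3K27me3 threshold. The plot of top windows shows a continuous cloud, so the members are a range of RING1B values and not a separate class.

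The share of regions with intermediate RING1B was highest in the middle of the H3K27me3 range over the threshold. It was 0.372% (24 of 6447) among regions with an H3K27me3 top window under 0 and 12.0% between 1 and 2. It was 25.8% (237 of 917) between 2 and the threshold. Above the threshold it was 35.0% up to 3.5, 48.8% from 3.5 to 4 and 45.7% from 4 to 4.5. It came to 33.7% from 4.5 to 5 and 17.4% (141 of 810) at 5 or more, where 80.4% of regions were strong. Regions with more probes have more chances of a high top window. Among regions of 20 to 40 probes alone, the shares from 3.5 up were 49.3%, 46.5%, 35.6% and 18.1%, so the same order was present at a like probe number. The order holds for Cy5 over Cy3 only. With the ratio turned, no scored region had an H3K27me3 top window of 3.5 or more, and the share was 28.1% from 1 to 2, 48.5% from 2 to the threshold and 63.4% (97 of 153) from there to 3.5.

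Array design 1 held 614 members (6.08% of its 10106 scored regions) and design 2 held 423 (4.65% of 9090). The median H3K27me3 top window was 4.41 on design 1 and 3.90 on design 2, while the RING1B medians were 1.99 and 2.12. Over all probes the log2 ratio of the H3K27me3 array had a standard deviation of 1.91 on design 1 and 1.68 on design 2, and that of the RING1B array 1.33 and 1.41. The designs cover different chromosomes, apart from chromosome 9 which spans both, so an array difference and a chromosome difference cannot be told apart. Between members, the top windows of both antibodies were only weakly related within a design (Pearson's r across regions of 0.19 on design 1 and 0.18 on design 2), over a RING1B range that the rule cut short.

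The 10 members with the highest H3K27me3 top windows all lay on design 1. Of them, 5 lay on chromosome 7, which held 106 of the 614 members of that design. The designs were not scaled to each other, and H3K27me3 ratios spread more on design 1 (SD 1.91 against 1.68), so the ranking favours design 1. At the head of the 10 was chr8:109224888-109232544, where the 3 H3K27me3 probes read 5.63, 6.33 and 6.35 (mean 6.10 ± 0.41, SD over 3 probes). The same 3 probes read 1.33, 2.41 and 3.00 for RING1B (mean 2.25 ± 0.85). Its H3K27me3 signal was confined to one end of the tile, in a run of overlapping windows over the threshold of 2.20 kb out of 7.66 kb.

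A similar edge-bound peak was seen at chr7:135364625-135378622, a tile of 14.0 kb. The H3K27me3 probes of its top window read 5.97, 6.49 and 5.48 (mean 5.98 ± 0.51), and RING1B reached 2.32 ± 0.59 with the same middle probe. Over the threshold were 22.6% of its H3K27me3 windows, and 6.82% of its RING1B windows passed 1.5. Most windows of that tile were thus under these bounds for both antibodies.

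The third member by H3K27me3 was filled from end to end. At chr8:87825161-87827897, a tile of 2.74 kb with 15 probes, every H3K27me3 window passed its threshold and every RING1B window passed 1.5. Its top windows were 5.87 ± 0.23 and 2.42 ± 0.34 and used the same 3 probes, which read 6.08, 5.62 and 5.90 for H3K27me3 and 2.64, 2.03 and 2.58 for RING1B. A strong region lay 6.19 kb away, the closest for any of these 10. Both signals reached the ends of the tiled stretch, so their full extent was not measured.

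The other 7 of the 10 had H3K27me3 top windows of 5.71 to 5.81 and RING1B top windows of 1.80 to 2.61. They were chr7:131799349-131807067, chr2:180031293-180039142, chr7:135246050-135251205, chr4:138344430-138349221, chr7:45032450-45040102, chr4:124361990-124366124 and chr7:46260101-46268093. In 6 of the 10, both antibodies peaked on the same middle probe. At chr7:46260101-46268093 they peaked 2781 bp apart, and RING1B in the H3K27me3 top window there was 2.10 against 2.31 in its own.

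At the upper edge of the RING1B range, 5 of the 6 members with the highest RING1B top windows came from design 2. The highest, chr16:60545032-60552949, had RING1B probes of 2.77, 2.73 and 2.60 (mean 2.70 ± 0.086) and an H3K27me3 top window of 4.35 ± 0.46. RING1B stayed over 1.5 for 2.66 kb there, in 51.4% of its windows. Its RING1B and H3K27me3 peaks were 1937 bp apart, and H3K27me3 in the RING1B top window was 2.95. RING1B was also raised at the H3K27me3 peak, at 2.25 in that window, and the signals followed each other along the tile (r = 0.83). The level was thus carried by many probes, not by a single high one.

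The other 5 were chr9:69938478-69944421, chr5:100957634-100959713, chr10:126460870-126468992, chr9:121485909-121496164 and chr16:36610335-36615774. Their H3K27me3 top windows ran from 3.98 to 4.61, none of them close to the highest of the members. At chr9:121485909-121496164 the RING1B value in the H3K27me3 top window was only 0.81, with the peaks 1835 bp apart.

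At the lower edge of the RING1B range the H3K27me3 values were spread widely, from 2.90 to 4.61 in the 6 members with the lowest RING1B. The lowest, chr19:7330429-7338087, entered through 1 window for each antibody. Its H3K27me3 probes read 3.85, 0.28 and 4.56 (mean 2.90 ± 2.29) and its RING1B probes 1.01, 1.52 and 1.97 (mean 1.50 ± 0.48). The H3K27me3 probes disagreed by more than the height of the window itself, so this region is a weak case of membership.

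A contrasting case was chr5:135228911-135234730, where 91.7% of H3K27me3 windows passed the threshold in a run of 5.02 kb and the top window was 4.61 ± 0.67. RING1B passed 1.5 in 1 of 22 windows there, with probes of 0.52, 0.79 and 3.19 (mean 1.50 ± 1.47). Its place among the intermediate rather than the weak regions thus rested on a single probe. The other 4 at this edge were chr17:25295772-25309257, chr3:82631414-82639448, chr7:122078328-122082934 and chr4:132509769-132515314, with RING1B over 1.5 in 1.64% to 11.1% of their windows.

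H3K27me3 topped RING1B in all 1037 members. The median difference between the top windows was 2.10, and it was at least 2 in 563 members (54.3%) and at least 3 in 127 (12.2%). Among strong regions, the RING1B top window was the higher in 380 of 1392 (27.3%). A RING1B ceiling of 2.7 below an H3K27me3 floor of 2.85 forces the order in the members, and the 2 antibodies share no common scale, so the sign carries no information on amounts of protein.

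The largest gap, 4.04, was at chr7:142179246-142187066. Its H3K27me3 probes read 5.63, 6.01 and 5.50 (mean 5.71 ± 0.26), and the same probes read 1.75, 1.79 and 1.48 for RING1B (mean 1.67 ± 0.17). H3K27me3 stayed over its threshold for 3.95 kb, while RING1B stayed over 1.5 for 0.543 kb. Both peaks were tight over their probes, so this gap was not the work of a single probe.

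Next in gap came chr6:119294223-119301698 (3.96), chr7:131799349-131807067 (3.95), chr4:124361990-124366124 (3.93), chr7:141753856-141761806 (3.90) and chr1:182724547-182731726 (3.89). All 6 lay on design 1, where H3K27me3 ratios spread more than on design 2 and RING1B ratios spread less. The last of the 6 rested on 1 RING1B probe of 4.0 beside probes of 0.27 and 0.39, while its H3K27me3 probes read 5.72, 5.51 and 5.09. At chr7:141753856-141761806 the RING1B probes agreed closely, at 1.75, 1.83 and 1.69.

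At these bounds the mark took up more of a tile than RING1B did. A median of 35.3% of a member's H3K27me3 windows passed the threshold (quartiles 18.8% and 56.3%), and a median of 17.2% of its RING1B windows passed 1.5 (9.26% and 29.2%). The longest run had a median of 1758 bp for H3K27me3 and 1034 bp for RING1B. The rule caps RING1B close above its bound and leaves H3K27me3 without a cap, so the rule itself favours this order. These runs are cut by the tiles, whose median length was 7482 bp in the members. In 481 members (46.4%) the first or last H3K27me3 window of the tile was over the threshold. The first or last RING1B window was over 1.5 in 171 (16.5%). These counts take in any window over a bound, not only those of the longest run. In weak regions the H3K27me3 run had a median of 1067 bp. In strong regions, where RING1B has no cap, it was 2512.5 bp and the RING1B run was the longer, at 3013 bp. The first or last RING1B window was over 1.5 in 69.8% of strong regions.

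The longest H3K27me3 run among the members, 8.23 kb, filled the whole tile of chr7:30163244-30171468. Its H3K27me3 top window was 5.27 ± 0.40 and its lowest window still 3.23, while RING1B peaked at 1.85 ± 0.28 and fell to 0.12 at its lowest. At chr7:45032450-45040102 the run was 7.34 kb, with top windows of 5.76 ± 0.21 for H3K27me3 and 2.61 ± 1.11 for RING1B. RING1B passed 1.5 in 24.2% and 50% of the windows of these 2 regions. In both, H3K27me3 passed its threshold over nearly the whole tile, and RING1B passed 1.5 over only part of it. The lowest RING1B window of the second region was -0.91, while that of the first was still above the array median.

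Runs of 6.39 to 6.83 kb were found in the other 4 of the 6 longest, at chr5:137512701-137526883, chr4:136226577-136234361, chr2:130320354-130335002 and chr5:112814895-112822889. Their RING1B runs were 1.01 to 2.20 kb. In none of the 6 did both antibodies peak on the same middle probe. The peaks were 112 to 2668 bp apart.

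**Figure D2:**
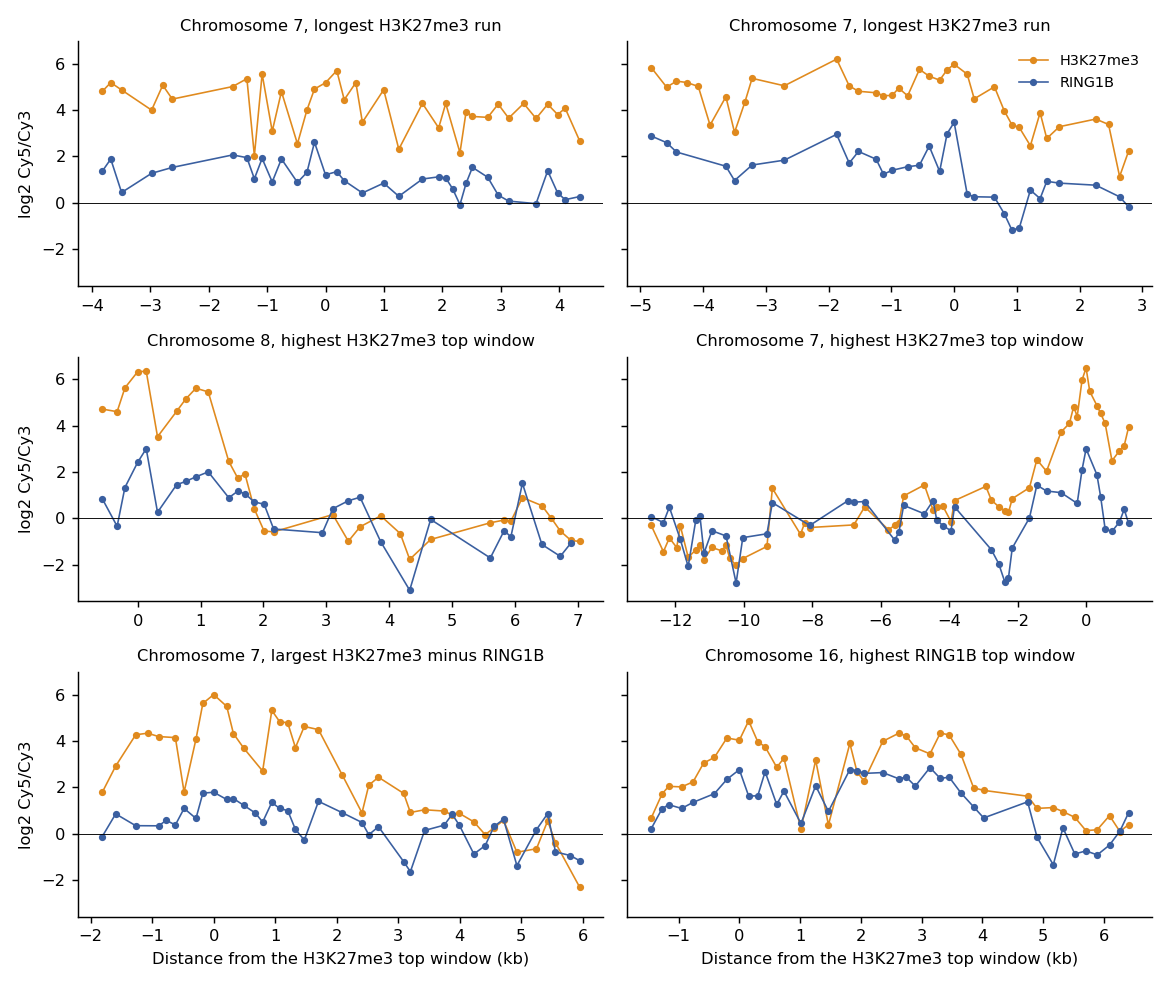
Probe values of 6 named members against distance from the middle of the H3K27me3 top window in kb, as centred log2 Cy5 over Cy3, with H3K27me3 in orange and RING1B in blue. The first 2 panels are the longest H3K27me3 runs (8.23 and 7.34 kb), the next 2 the highest H3K27me3 top windows (6.10 and 5.98), and the last 2 the largest gap between the antibodies (4.04) and the highest RING1B top window (2.70).

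In the main setting, the distance between the peaks of the 2 antibodies was close to that of tiled regions in general, without matching for tile size. The median distance between top windows was 334 bp in members and 343.5 bp in all scored regions. The middle probe was the same in 283 members (27.3%, against 28.0% of all scored regions), and the windows were at most 500 bp apart in 606 (58.4% against 56.9%). More than 2000 bp lay between them in 75 members (7.23% against 14.3%). The closeness depended on the setting. With normexp the median was 137 bp in members against 374 bp in all scored regions. It was 214 against 528 bp with centring within probe length and 192.5 against 571 bp with probes of at least 50 bases. With the ratio turned it was 1076 against 633 bp. H3K27me3 in the RING1B top window was still over its threshold in 841 members (81.1%). RING1B in the H3K27me3 top window was over 1.5 in 689 (66.4%) and below 0 in 12. The median RING1B value in the H3K27me3 top window was 1.75, lower by a median of 2.50 than H3K27me3 in the same probes. The 2 shares cannot be set against each other in members, because the rule caps RING1B close above its bound. In strong regions, which have no such cap, they were 98.3% and 98.1%.

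Peak distance was ordered along the RING1B scale. The median distance was 635 bp in weak regions, 334 bp in members and 176 bp in strong regions. With loess this order was lost, at 569.5, 482 and 588 bp, and with the ratio turned it was 632, 1076 and 272 bp. The same middle probe was shared by 16.3% of weak, 27.3% of intermediate and 39.2% of strong regions. Within the members the distance went from 468 bp at RING1B of 1.5 to 1.8 down to 263 bp at 2.4 to 2.7. The bins next to the bounds had 615 bp (1.2 to 1.5) and 187 bp (2.7 to 3), so no jump marked either bound.

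Along single members, RING1B and H3K27me3 followed each other from probe to probe. The median correlation within a member was 0.62 (quartiles 0.46 and 0.72), over the 1017 members with at least 10 probes measured for both, and it lay between -0.37 and 0.93. It was at least 0.5 in 715 members and under 0 in 11. Medians were 0.36 in weak regions, 0.80 in strong regions and 0.51 in all scored regions. From the lowest to the highest of the 4 RING1B bins within the members, it was 0.50, 0.60, 0.66 and 0.71. Both antibodies were read on the same probes, with the same base composition and length at each. The arrays of a design may also share the input and its amplification, so these correlations are a description. With centring within probe length the median in members was 0.68.

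Both signals were lower with distance from the H3K27me3 peak, and RING1B reached the array median within the tile. With the 3 probes of the top window left out, the median H3K27me3 value in members was 3.09 within 500 bp, 2.55 at 1000 to 1500 bp and 1.20 at 3000 to 4000 bp. The median RING1B value was 1.17, 0.86 and 0.0098 at the same distances. In strong regions RING1B was 2.93 within 500 bp and still 1.07 at 3000 to 4000 bp, where H3K27me3 was 2.66. In weak regions RING1B was 0.56 and -0.10. At the far end of this span the members' H3K27me3 was still above the array median and their RING1B was at it. The rule caps RING1B but not H3K27me3, and the antibodies share no common scale, so this difference does not measure extent.

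**Figure D3:**
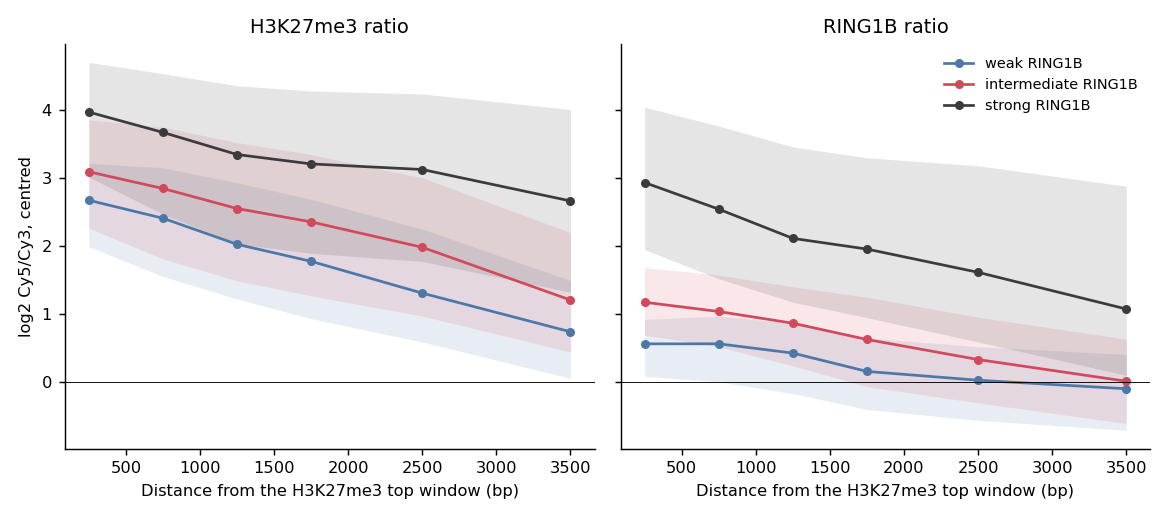
Median centred log2 Cy5 over Cy3 of probes by distance from the H3K27me3 top window in bp, for weak, intermediate and strong regions, with the quartiles shaded and the 3 probes of the top window left out. RING1B of intermediate regions goes from 1.17 within 500 bp to 0.0098 at 3000 to 4000 bp, while their H3K27me3 is still at 1.20.

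Windows over the H3K27me3 threshold formed 1 continuous run in 497 members (47.9%), against 67.8% of weak, 39.3% of strong and 7.57% of all scored regions. Those over the lower RING1B bound formed 1 run in 661 (63.7%), against 61.2% of strong and 12.1% of all scored regions. Only 15.8% and 17.5% of all scored regions passed these bounds. At least 3 separate RING1B runs were seen in 80 members (7.71%), against 9.27% of strong and 1.19% of all scored regions. In 38 members (3.66%) every H3K27me3 window passed the threshold, against 4.15% of weak, 8.12% of strong and 0.917% of all scored regions. A RING1B window at or under -1.5, the lower bound with its sign turned, was present in 109 members (10.51%) against 24.1% of all scored regions. It was as rare in the other marked regions, at 10.12% of weak and 8.26% of strong ones.

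Tile size differed little from the other marked regions. The members had a median of 33 probes over 7482 bp, weak regions 29 over 6842 bp, strong regions 36 over 7675 bp and all scored regions 22 over 5013 bp. Only 17 members held fewer than 10 probes. In the 501 members with tiles of 7000 to 8500 bp, the H3K27me3 top window lay a median of 2107.5 bp from the tile's midpoint and the RING1B top window 1970 bp. More than 3000 bp from the midpoint, near the ends, were 12.0% and 8.58% of them, against 22.9% and 21.3% in strong regions.

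Probe length moved with the RING1B values. Array probes were up to 60 bases long, and in regions low for both antibodies the median RING1B value was 0.49 on probes of at most 45 bases and -0.52 on probes of 60 bases. The step of 1.02 was 1.03 on design 1 and 1.00 on design 2. Within members the medians were 0.89 and 0.29, a step of 0.60. For H3K27me3 the step was 1.22 in low regions, at 1.34 on design 1 and 1.16 on design 2. In members it was -0.52, but only -0.12 on design 1 against -0.93 on design 2. The members' H3K27me3 medians were 1.56 on probes of at most 45 bases, 2.50 on 51 to 55 bases and 2.08 on 60 bases. The shortest probes were thus the lowest, without a steady rise with length.

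Short probes were also frequent where the members' RING1B peaked. Probes of at most 45 bases made up 24.4% of all member probes, 32.6% of those in RING1B top windows and 12.9% of those in H3K27me3 top windows. In the RING1B top windows of weak regions they were 40.1% and in those of strong regions 13.8%. With values centred separately for each probe length, 812 of the 1037 members still met the rule, 145 fell to weak and 75 moved to strong. With probes of at least 50 bases only, 705 still met it. The part of probe length in the intermediate RING1B level was not tested beyond these counts.

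**Figure D4:**
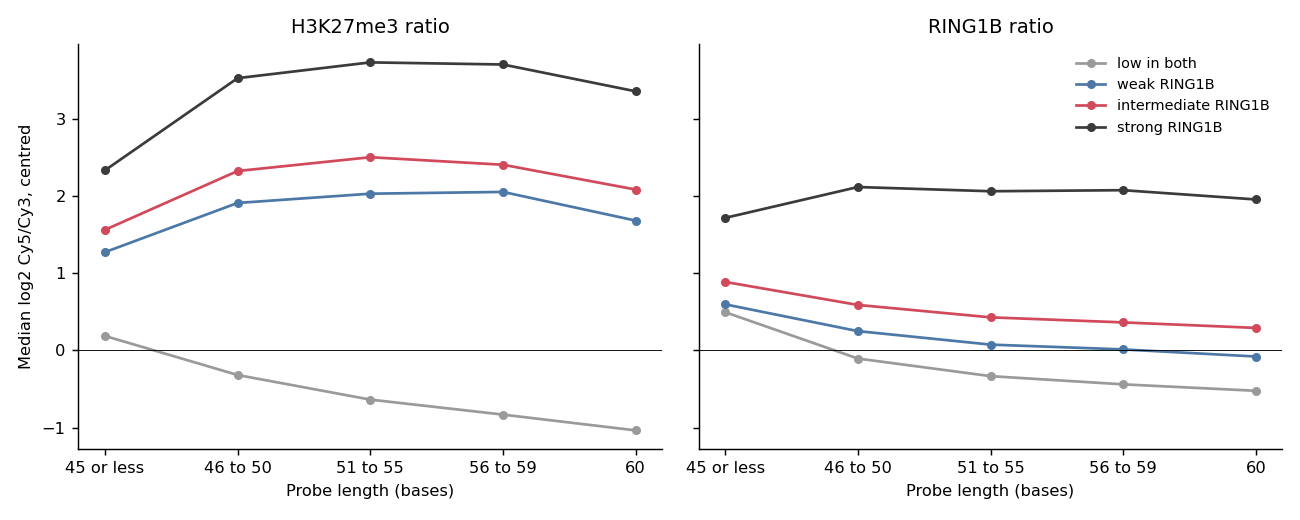
Median centred log2 Cy5 over Cy3 by probe length in bases, for H3K27me3 (first panel) and RING1B (second panel), in weak, intermediate and strong regions and in regions low for both antibodies. RING1B of intermediate regions goes from 0.89 on probes of at most 45 bases to 0.29 on probes of 60 bases, and in low regions from 0.49 to -0.52.

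Members were spread over all 19 autosomes, at 2.69% to 8.31% of the scored regions of a chromosome. Chromosome 15 was the highest, with 64 members in 770 regions, and chromosome 18 the lowest, with 13 in 483. Of the regions over the H3K27me3 threshold, 45.4% were intermediate on chromosome 15 and 17.6% on chromosome 18, and both chromosomes lie on design 2. Chromosome 7 held the most members, 106 in 1671 regions (6.34%). Chromosomes 1 to 8, all on design 1, ranged only from 5.46% to 6.71%.

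In steps of 1 Mb, 1337 of 2010 bins held no member, 454 held 1 and 134 held 2. The 85 bins with at least 3 members took in 315 of the 1037. Most members in a bin were 7, on chromosome 7 from 24 to 25 Mb (43 scored regions), on chromosome 7 from 45 to 46 Mb (48 regions) and on chromosome 10 from 79 to 80 Mb (58 regions). The first of these bins held 0 strong regions and 2 weak ones. The bin on chromosome 7 from 45 Mb includes chr7:45032450-45040102, one of the longest runs described above.

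For most members, the nearest strong region, the nearest other member and the nearest weak region were each over 20 kb away. A strong region lay within 20 kb of 47 members (4.53%, exact binomial 95% interval 3.35% to 5.98%, counting error only), against 4.16% of all scored regions. Within 100 kb it was 18.4% against 17.2%. The median gap was 409.72 kb. The share within 20 kb depended on the settings. With starts at most 500 bp apart it was 13.4% of members against 6.92% of all scored regions, and with normexp 2.66% against 1.58%. With loess it was 2.95% against 2.38%. Another member lay within 20 kb of 50 members (4.82%), against 4.61% of all scored regions, and within 100 kb of 236 (22.8%), against 17.3%. A weak region lay within 20 kb of 5.69%, against 3.45%, and within 100 kb of 19.3%, against 13.1%.

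The closest pair was chr9:21800152-21802878 and chr9:21804016-21807775, separated by 1138 bp without probes. Its H3K27me3 top windows were 4.61 ± 1.42 and 4.45 ± 0.63, and its RING1B top windows 2.35 ± 1.68 and 2.21 ± 0.56. Both peaks lay at the facing ends of the tiles, and on each side the 2 antibodies shared a middle probe. The untiled gap therefore sits within the signal, and the pair may be read as 1 stretch or as 2.

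The second pair differed in RING1B. At chr6:124959688-124960315, a tile of 4 probes, RING1B was 1.51 ± 0.73, and at chr6:124961899-124964812 it was 2.61 ± 0.20, with H3K27me3 of 4.61 ± 0.20 and 4.99 ± 0.27. The first tile had 1 RING1B window only, which makes its value the less reliable. The remaining pairs were chr11:115135505-115143431 with chr11:115145531-115153283 (2100 bp apart) and chr6:113465576-113468434 with chr6:113470842-113472694 (2408 bp apart). In the chromosome 11 pair RING1B was 2.68 ± 1.15 and 1.87 ± 0.49, and in the last pair 1.54 ± 0.65 and 1.53 ± 0.46.

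How many regions met the rule changed with normexp and with loess. Background correction by normexp with an offset of 50 started from median spot signals and local background, not from the processed signals. It gave 489 regions, of which 87 were among the 1037, while 485 of the 1037 became weak and 465 fell under the H3K27me3 threshold. The parts of the signal, the background and the offset in this shift were not separated. Loess within each array gave 679 regions, 465 of them shared, and 523 members fell under the H3K27me3 threshold. Without a filter on dim probes 848 members still met the rule and 188 became strong. Windows of 5 probes kept 760, and medians of 3 probes kept 876. With the direction of the ratio kept, membership of single regions changed most under normexp and next under loess.

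**Figure D5:**
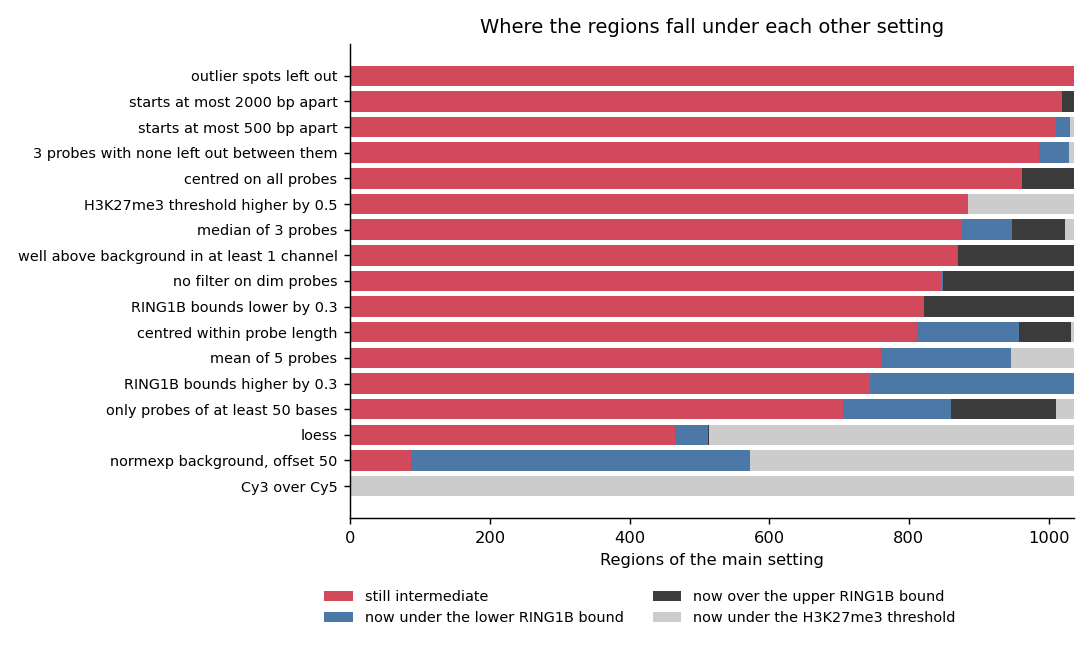
Number of the 1037 regions (x axis) that stay intermediate or move to weak RING1B, to strong RING1B or under the H3K27me3 threshold. Each bar is 1 alternative. Leaving out outlier spots keeps 1036, centring within probe length 812, loess 465, normexp 87 and turning the ratio to Cy3 over Cy5 keeps 0.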

How the data were processed

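The 4 arrays of E10.5 forelimb buds were read as 2 designs with 1 array per antibody. Per the file headers, Agilent Feature Extraction 10.1.1.1 turned the scans into signals. The processed signals are deposited as intensity values, which are linear. The authors' extraction had subtracted background with its spatial trend, then divided out a multiplicative trend and normalized the dyes linearly without lowess. The deposited log ratios, Cy5 over Cy3, are log10 values per the file headers. The authors' deposited value tables hold log2 ratios that equal these within 0.001 for all probes matched and are not centred. Their medians were -0.16 (H3K27me3) and -0.11 (RING1B) on design 1, and 0.018 and -0.12 on design 2.

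Log2 ratios of the processed signals were centred on each array's median. Control spots were dropped, as was any probe that either channel did not show well above background, which kept 83.3% to 85.9% of 237195 and 237185 probes. Regions were stretches of probes with starts at most 1000 bp apart. Python 3.11.15, R 4.3.3 and limma 3.58.1 were used, the last for normexp and loess. The steps were tested on simulated data with low noise, every probe kept and planted values away from the bounds. That test does not bear on regions near a bound. A run is the longest stretch of overlapping windows past a bound.

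The members, the gene lists and the alternatives were chosen with earlier results of these data known. Named regions are the 10 highest in H3K27me3, the 6 highest and 6 lowest in RING1B, the 6 largest differences, the 6 longest H3K27me3 runs, the 4 nearest pairs and the 3 on either side of each bound. Which genome build the coordinates follow is not given in the sources used. Gene names, the gene lists, sequences and base composition were therefore not analysed here, and coordinates are those of the files.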

Additional observations from a re-analysis of the deposited data

How the results depend on the processing

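Each alternative changed 1 choice, except normexp. Normexp started from median spot signals and local background, so it also left out the trend and dye corrections of the processed signals. The alternatives that changed the values, the windows or the bounds were applied to 9 results, and the distance of 100 kb to 1 of them. The count of members went from 1037 to 489 with normexp background correction, 679 with loess and 97 with Cy3 over Cy5. Design 2 alone gave 423 and design 1 alone 614. Loess also moved the median H3K27me3 top window to 3.22, the median RING1B minus H3K27me3 difference to -1.47 and the median share of windows past the H3K27me3 threshold to 8.33%. With Cy3 over Cy5 these were 2.97, -1.65 and 6.67%. The share of members with a strong RING1B region nearby was 18.4% within 100 kb (17.2% of all scored regions, given in brackets from here). Within 20 kb it was 2.66% with normexp (1.58%) and 2.95% with loess (2.38%). For starts at most 500 bp apart, which cuts tiles into nearer pieces, it was 13.4% (6.92%), and for 2000 bp 3.22% (3.05%). It was 6.35% with RING1B bounds lower by 0.3 (5.05%) and 0% with Cy3 over Cy5 (0.0052%). The cause of the shifts under normexp and loess was not tested. Centring within probe length, with 1011 members, and probes of at least 50 bases, with 974, were chosen after seeing the data. The median distance between top windows ranged from 137 bp with normexp to 482 bp with loess while Cy5 over Cy3 was kept, and was 1076 bp with the ratio turned. The median RING1B top window is held by the bounds of the rule, so its stability under the alternatives shows nothing.

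No paired analysis was possible because the numbers 1 and 2 name array designs that share no probes, so each region has 1 array per antibody. Precision is limited by that single array, and dim probes have ratios that depend on the background taken off.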

Other observations

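Chromosome X was outside the rule. By the same bounds, 27 of its 704 scored regions (3.84%) had high H3K27me3 with intermediate RING1B, against 423 of 9090 autosomal regions (4.65%) on the same array design. Another 40 X regions were weak and 31 strong. The 27 had a median H3K27me3 top window of 3.55 and a median RING1B top window of 1.88, against 3.90 and 2.12 in the autosomal members of that design. Their longest H3K27me3 run had a median of 1195 bp, against 1387 bp. The sexes of the pooled embryos are not in the sources used here, and the difference from the autosomes was not tested.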
